A study of Sus scrofa with 6 samples.

Results

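A growing oocyte makes most of the mRNA that the early embryo will use and keeps much of it untranslated until meiosis resumes. ZAR1 and ZAR1L, the zygote arrest proteins, bind stored transcripts through a zinc finger at the C terminus, and YBX2 (also called MSY2 in the mouse) is the germ cell Y-box protein that coats and stabilises maternal mRNA. LSM14A, LSM14B, the RNA helicase DDX6, the eIF4E-binding protein EIF4ENIF1 (4E-T) and PATL2 belong to the complexes that hold capped mRNA in a repressed state. The levels of the mRNAs that encode these proteins are described here in porcine oocytes.

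The 8 genes were chosen by name, with their FPKM in this table and earlier results of the same samples in view, so their values are given as a description. No P-value is printed for any of them, and how many passed a limit is given only beside the share of all genes that did, with nothing read from it. Of the 8, 7 were found among the 29861 genes of the table (FPKM, a level of fragments fragment counts corrected for gene length and library size). PATL2 was not analysed here. Differences were tested in the 4713 genes with a mean of at least 1 FPKM over the 6 samples, and 5 of the 7 genes passed that minimum: ZAR1, ZAR1L, YBX2, LSM14B and EIF4ENIF1. Each of these 5 was above 1 FPKM in every sample, so none passed through a single group. LSM14A and DDX6 were below it and are given as levels only. Whether groups overlap is likewise a description, with 2 samples per group. The share of all genes whose groups did not overlap was not computed, so nothing is read from a lack of overlap.

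The 6 libraries came from oocytes of 3 groups with 2 samples each: untreated control, heat stress, and heat stress+NMN, in which heat-stressed oocytes also received nicotinamide mononucleotide, a precursor of NAD+. The oocytes of every group came from abattoir ovaries, were collected inside their cumulus cells and were cultured in vitro. The labels give the stage as GV (germinal vesicle, before meiosis resumes) and the time as 24 h, whereas the methods describe pools of metaphase II oocytes, so the stage of the sequenced oocytes is uncertain. NMN was not given without heat stress. No source states that the 2 samples of a group were separate pools of animals, so the spread between them may be technical.

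Between 15707 and 17163 genes were above 0 in a sample, and read depth was not given. The 13 protein-coding genes of the mitochondrial genome held 61.7% and 66.4% of the summed FPKM in control samples, 62.4% and 71.6% in heat-stressed samples, and 74.2% and 74.7% with NMN, so that this share moved with the groups. Of 18 oocyte markers, 16 were found and 15 had a mean of at least 1 FPKM. Their summed level was 3578 to 3846 FPKM in control, 3532 to 3535 FPKM in heat stress and 3075 to 3363 FPKM in heat stress+NMN. Of 20 cumulus and granulosa markers, 19 were found. Only INHBA, GATA4 and GREM1 had a mean of at least 1 FPKM, 16 stayed below 1 FPKM in all 6 samples, and INHA and AMH were listed at 0. The summed level of the 19 was 17.8 to 22.5 FPKM in control, 12.9 to 16.1 FPKM in heat stress and 11.5 to 17.5 FPKM with NMN. The part of these shifts in the results was not tested. A lower share of the fragments of a library and fewer transcripts per oocyte cannot be told apart in such libraries.

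The 3' ends of these mRNAs are shown because maternal transcripts are stored and later recruited through short motifs there: the poly(A) signal, and the cytoplasmic polyadenylation element bound by CPEB1. Each line gives 30 bases of the annotated 3' end on the transcript strand, taken from the RefSeq genome Sscrofa11.1, with the motif in capitals.

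ZAR1: acaaagctgtcaAATAAAagcattgcaaaa

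ZAR1L: cgaatagaatgaAATAAAtgcatgtgaaat

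YBX2: cctctgaagccaTTTTATgaaccgtcatgt

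EIF4ENIF1: ttcttttggttgATTAAAgttgcatatgca

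LSM14B: cttgtaattacaAATAAAcatgcaaacctt

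DDX6: ttagtttatctcAATAAAagcccactggaa

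These windows lie at chr8:38391577-38391606 (plus strand) for ZAR1, chr11:8795481-8795510 (minus) for ZAR1L, chr12:52635427-52635456 (minus) for YBX2, chr14:48156850-48156879 (minus) for EIF4ENIF1, chr17:61564401-61564430 (plus) for LSM14B and chr9:46025621-46025650 (minus) for DDX6. The last 100 bases of the annotated transcript were searched, on the transcript strand alone, for AATAAA or ATTAAA (poly(A) signal) and for TTTTAT or TTTTAAT (cytoplasmic polyadenylation element). ZAR1 and ZAR1L each held AATAAA, starting 21 bases from the end, and neither held the element. YBX2 held TTTTAT, starting 62 bases from the end, and neither form of the poly(A) signal. LSM14B and DDX6 held AATAAA 23 bases from the end and EIF4ENIF1 held ATTAAA 29 bases from the end. Among 3720 protein-coding genes with a mean of at least 1 FPKM, 80.6% held the poly(A) signal, 26.0% held the element and 22.4% held both (69.3%, 17.2% and 13.3% of 16349 genes in all). Over the whole annotated 3' UTR, DDX6 held 7 copies of the element in 4385 bases, none in the last 100. YBX2 held only the 1 named, and ZAR1, ZAR1L, LSM14B and EIF4ENIF1 held none. The share of all genes over the whole 3' UTR was not computed. These matches describe the annotated 3' ends of the chosen transcripts only. The annotation lists 2 transcripts of ZAR1, 3 each of ZAR1L, YBX2 and LSM14B, 7 of DDX6 and 8 of EIF4ENIF1. The ends of the other transcripts were not searched. The LSM14B gene extends to chr17:61566504, beyond the window shown. The single LSM14A transcript of the annotation is coding sequence alone, without a 3' UTR, so it has no window.

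The genes differ in size, and ZAR1, ZAR1L and YBX2 span the least. LSM14B (chr17:61553953-61566504), DDX6 (chr9:46025616-46063836), EIF4ENIF1 (chr14:48156835-48204701) and LSM14A (chr6:43847882-43901697) span more. The locus listed with the FPKM equalled the annotated gene for 6 of the 7 genes found, and for 21164 of all 29861 genes. The gene with a different locus is not named here, so its coordinates may differ from the interval counted. ZAR1 spans chr8:38386520-38391618 with 4 exons and a transcript of 1329 bases, of which 1164 are coding. ZAR1L spans chr11:8795478-8805876, also with 4 exons, and its transcript has 2902 bases with 1125 coding. YBX2 spans chr12:52635383-52642443 with 9 exons, 2664 bases and 1464 coding. The longest identical run shared by the ZAR1 and ZAR1L transcripts was 14 bases. YBX2 shared runs of up to 26 bases with YBX1 and 23 bases with YBX3, and LSM14A and LSM14B shared up to 28 bases.

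ZAR1 was the gene of the set whose level differed most between groups. Its FPKM was 17.3 and 23.8 in control, 11.8 and 13.8 in heat stress, and 4.30 and 2.84 in heat stress+NMN. The groups did not overlap in any of the 3 comparisons, and the NMN samples were the lowest. Mean levels were 20.5 ± 4.60 FPKM (SD, n = 2) in control, 12.8 ± 1.42 FPKM in heat stress and 3.57 ± 1.03 FPKM in heat stress+NMN. ZAR1 was thus 1.61-fold lower in heat stress than in control, 3.59-fold lower with NMN than in heat stress alone, and 5.76-fold lower with NMN than in control. On the log2(FPKM + 1) scale, which understates changes of low genes, these differences were -0.63, -1.61 and -2.24, each with a standard error of 0.23. Within a sample, ZAR1 was the 547th and the 397th most abundant gene in control, the 814th and 689th in heat stress, and the 1943rd and 2523rd with NMN.

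The mitochondrial share of FPKM stood at its highest in the samples with the least ZAR1. The FPKM sum outside the mitochondrial genome was 57865 to 62744 in 5 samples and 109125 in the first heat stress sample, where LOC100513953, a locus of 132 bases, was listed at 40366 FPKM against 0 in the other samples. When every sample was scaled to the same sum outside the mitochondrial genome and without this locus, the ZAR1 difference was -2.23 between heat stress+NMN and control, -1.56 between heat stress+NMN and heat stress, and -0.67 between heat stress and control. With the locus in the sum these were -2.25, -1.28 and -0.97. The scaling with the locus moved the median of all tested genes from 0.05 to -0.22 for heat stress minus control and from 0.08 to 0.35 for heat stress+NMN minus heat stress, and without the locus the medians were 0.02 and 0.12. Without control 2 the difference between heat stress and control was -0.41, and without control 1 it was -0.85.

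ZAR1L, the paralog of ZAR1, was the most abundant gene of the set and differed far less. Its FPKM was 148 and 154 in control, 138 and 131 in heat stress, and 131 and 114 in heat stress+NMN. The control samples were above all others, while the heat stress and heat stress+NMN samples overlapped. Means were 151 ± 4.43, 134 ± 5.22 and 123 ± 12.5 FPKM (SD, n = 2), with log2(FPKM + 1) differences of -0.17 for heat stress minus control, -0.13 for heat stress+NMN minus heat stress and -0.30 for heat stress+NMN minus control (standard error 0.12). The difference of -0.13 was -0.08 when samples were scaled to the same sum outside the mitochondrial genome and without LOC100513953, and turned to 0.25, below the median of all genes, when that locus of the first heat stress sample stayed in the sum. ZAR1L ranked between 58th and 73rd among all genes in every sample.

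The level of ZAR1L relative to ZAR1 therefore differed between groups, and this ratio does not depend on how a sample is scaled. It was 8.55 and 6.48 in control, 11.7 and 9.46 in heat stress, and 30.6 and 40.1 in heat stress+NMN. The 3 groups did not overlap, and both NMN samples were above the highest of the others.

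**Figure D1:**
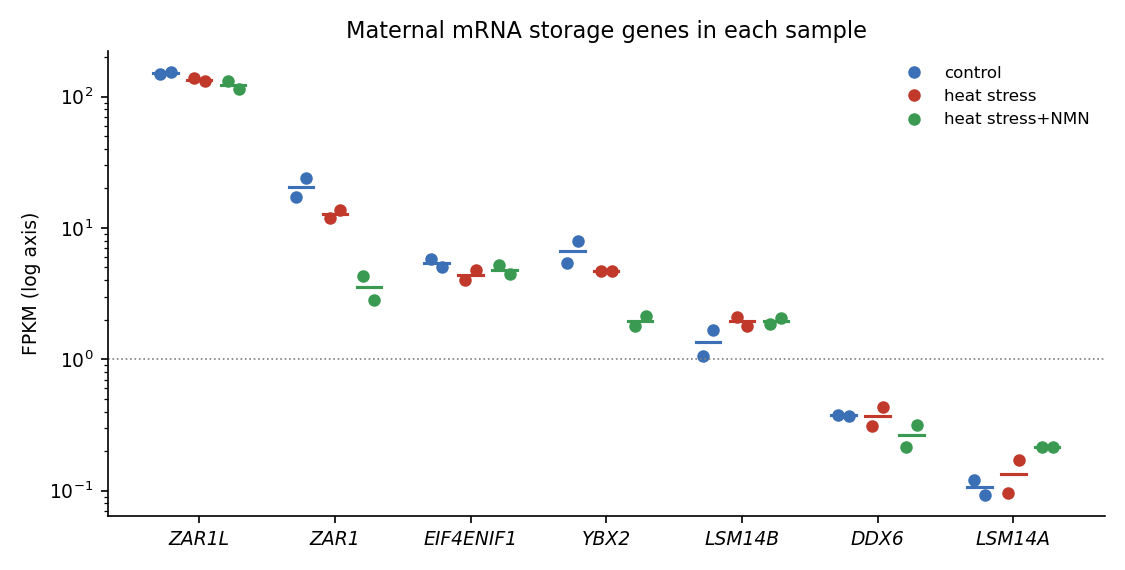
FPKM (log axis) of the 7 storage genes found in the table, in order of mean level. Each point is 1 sample, short lines are means of the 2 samples of a group, and the dotted line marks the minimum mean of 1 FPKM for testing. ZAR1 and YBX2 were lowest in both heat stress+NMN samples, whereas ZAR1L stayed between 114 and 154 FPKM.

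YBX2 had the same order of groups as ZAR1 at a lower level. Its FPKM was 5.45 and 7.91 in control, 4.70 and 4.71 in heat stress, and 1.79 and 2.13 in heat stress+NMN. No groups overlapped, and the gap between control 1 and the heat stress samples was small. Means were 6.68 ± 1.74, 4.71 ± 0.0106 and 1.96 ± 0.242 FPKM (SD, n = 2). YBX2 was 1.42-fold lower in heat stress than in control, 2.40-fold lower with NMN than in heat stress alone and 3.41-fold lower with NMN than in control. The log2(FPKM + 1) differences were -0.41, -0.95 and -1.36, with a standard error of 0.18. The first of these depended on the control samples, being -0.18 without control 2 and -0.64 without control 1. Scaled to the same sum outside the mitochondrial genome and without LOC100513953, the 3 differences were -0.44, -0.91 and -1.35, and with that locus in the sum they were -0.71, -0.67 and -1.38.

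YBX1, the somatic Y-box paralog that packages mRNA in most cell types, did not share this order. Its FPKM was 7.16 and 6.41 in control, 7.57 and 8.10 in heat stress, and 8.39 and 7.08 in heat stress+NMN. The heat stress samples were above control, and the NMN samples overlapped both groups. YBX3, the third Y-box gene, was between 0.631 and 1.08 FPKM. The ratio of YBX1 to YBX2 was 1.31 and 0.811 in control, 1.61 and 1.72 in heat stress, and 4.70 and 3.32 in heat stress+NMN. The ratio of YBX2 to ZAR1 varied less, from 0.315 to 0.416 in 5 samples, and was 0.751 in the second NMN sample.

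**Figure D2:**
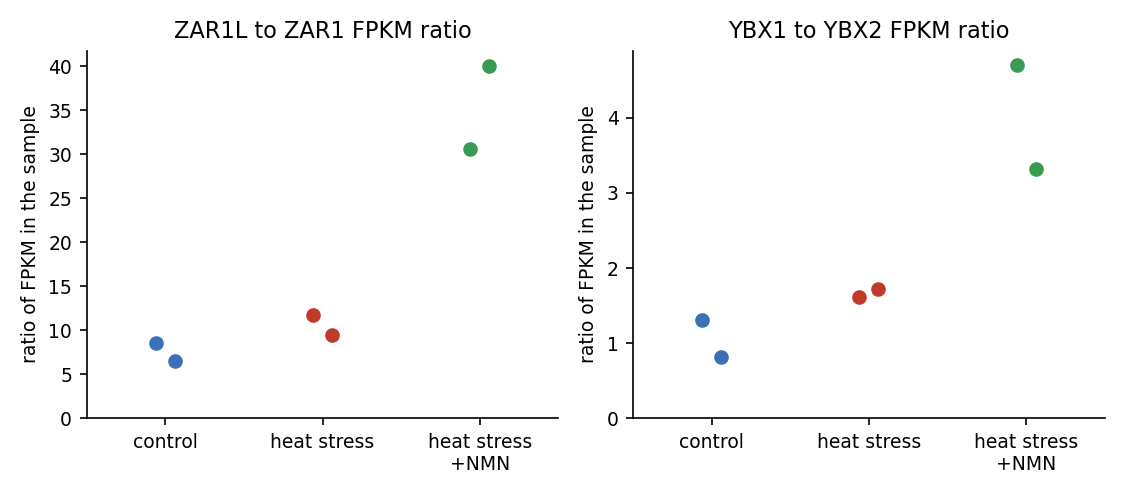
Ratio of FPKM within each sample (linear axes from 0) for ZAR1L to ZAR1 on the left and YBX1 to YBX2 on the right, 1 point per sample. Both ratios were highest in the 2 heat stress+NMN samples, at 30.6 and 40.1 on the left and at 4.70 and 3.32 on the right.

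The tested genes of the repressor complex differed less than ZAR1 and YBX2 in the 2 comparisons with NMN. Between heat stress and control, LSM14B was 1.44-fold higher and YBX2 1.42-fold lower. EIF4ENIF1, the 4E-T protein that binds eIF4E in place of eIF4G, was at 5.79 and 5.04 FPKM in control, 3.98 and 4.78 FPKM in heat stress, and 5.19 and 4.45 FPKM with NMN. The control samples were above the heat stress samples, and the NMN samples overlapped both. Its log2(FPKM + 1) differences were -0.26 for heat stress minus control, 0.12 for heat stress+NMN minus heat stress and -0.14 for heat stress+NMN minus control (standard error 0.14). With 1 sample left out they ranged from -0.36 to -0.15, 0.01 to 0.22 and -0.23 to -0.05. The lowest sizes came without heat stress 1 (-0.15 and 0.01), NMN 1 (0.02), control 1 (-0.17 and -0.05) and NMN 2 (-0.05).

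LSM14B, an oocyte-enriched LSm protein of the repressed particles, was the only tested gene of the set with a higher mean in heat stress than in control. It was at 1.06 and 1.66 FPKM in control, 2.11 and 1.79 FPKM in heat stress, and 1.86 and 2.05 FPKM with NMN. Both treated groups were above control and overlapped each other. The differences on the log2(FPKM + 1) scale were 0.33, 0.00 and 0.34 (standard error 0.16), and the first and the last were 0.15 without control 1 and 0.52 without control 2. LSM14B overlaps PSMA7 and LOC106506742, an annotated long non-coding RNA, on the opposite strand, and the sources used here do not say whether strand was used in counting. PSMA7, a proteasome subunit gene, was at 1.98 and 1.73 FPKM in control, 0.323 and 1.31 FPKM in heat stress and 0.0887 and 0.646 FPKM with NMN, the opposite direction to LSM14B.

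DDX6 and LSM14A were listed at low levels throughout. DDX6, the helicase at the centre of the complex, was at 0.378 and 0.371 FPKM in control, 0.312 and 0.433 FPKM in heat stress and 0.215 and 0.316 FPKM with NMN. The NMN samples overlapped the heat stress samples and were below control. LSM14A was at 0.121 and 0.0935 FPKM in control, 0.0958 and 0.172 FPKM in heat stress, and 0.216 and 0.215 FPKM with NMN, so the NMN samples were above the other 4. DDX6 overlaps LOC106504894 on the opposite strand.

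In mean FPKM per group, the order in control was ZAR1L, ZAR1, YBX2, EIF4ENIF1, LSM14B, DDX6 and LSM14A. YBX2 and EIF4ENIF1 overlapped in control, and the other neighbours in that order did not. The order was the same in heat stress, where YBX2 at 4.70 and 4.71 FPKM again lay within the range of EIF4ENIF1. With NMN, EIF4ENIF1 stood above ZAR1 without overlap, YBX2 at 1.79 and 2.13 FPKM lay around the level of LSM14B, and DDX6 and LSM14A overlapped. The summed FPKM of the 7 genes was 178 and 193 in control, 161 and 156 in heat stress, and 145 and 126 with NMN. ZAR1L made up 79.9% to 90.6% of it. Without ZAR1L the sum was 30.1 and 38.9 FPKM in control, 23.0 and 25.7 FPKM in heat stress, and 13.6 and 12.0 FPKM with NMN.

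The 3 comparisons share samples, since the heat stress samples enter 2 of them and so do the control samples. For heat stress minus control, 1074 of 4713 genes (22.8%) had an unadjusted P under 0.05 with limma, 476 of them lower (10.1%), and 0 genes (0%) had an adjusted P under 0.05. ZAR1 was the 1 gene of the 5 with an unadjusted P under 0.05, and it was not under that limit without control 2 or without either heat stress sample. For heat stress+NMN minus heat stress, 641 genes (13.6%) had an unadjusted P under 0.05, 304 of them lower (6.45%), and 0 genes (0%) an adjusted P under 0.05. ZAR1 and YBX2 were the 2 genes of the 5 under the unadjusted limit. The members' levels were known when they were chosen, so nothing is read from these counts.

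For heat stress+NMN minus control, the unadjusted limit was passed by 1948 genes (41.3%), 740 of them lower (15.7%). At an adjusted P under 0.05 there were 1015 genes (21.5%), 432 of them lower (9.17%). ZAR1, YBX2 and ZAR1L were the 3 of the 5 under the unadjusted limit, all lower with NMN, and ZAR1 and YBX2 were the 2 under the adjusted limit. ZAR1L stayed under the unadjusted limit in only 5 of 17 alternative analyses. The adjusted calls depended on the minimum level and on single libraries. The YBX2 call was lost with a minimum mean of 0.1 FPKM, and the calls of ZAR1 and YBX2 were both lost without a filter. Without control 2 there were 0 genes with an adjusted P under 0.05, without either NMN sample there was 1, and without control 1 there were 373, so that the calls of ZAR1 and YBX2 were lost without control 2, NMN 1 or NMN 2. Their log2(FPKM + 1) differences remained between -2.47 and -2.01 for ZAR1 and between -1.59 and -1.13 for YBX2 when 1 sample was left out. The median difference of the 5 genes was -0.26 for heat stress minus control, -0.13 for heat stress+NMN minus heat stress and -0.30 for heat stress+NMN minus control, and that of all tested genes was 0.05, 0.08 and 0.11.

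**Figure D3:**
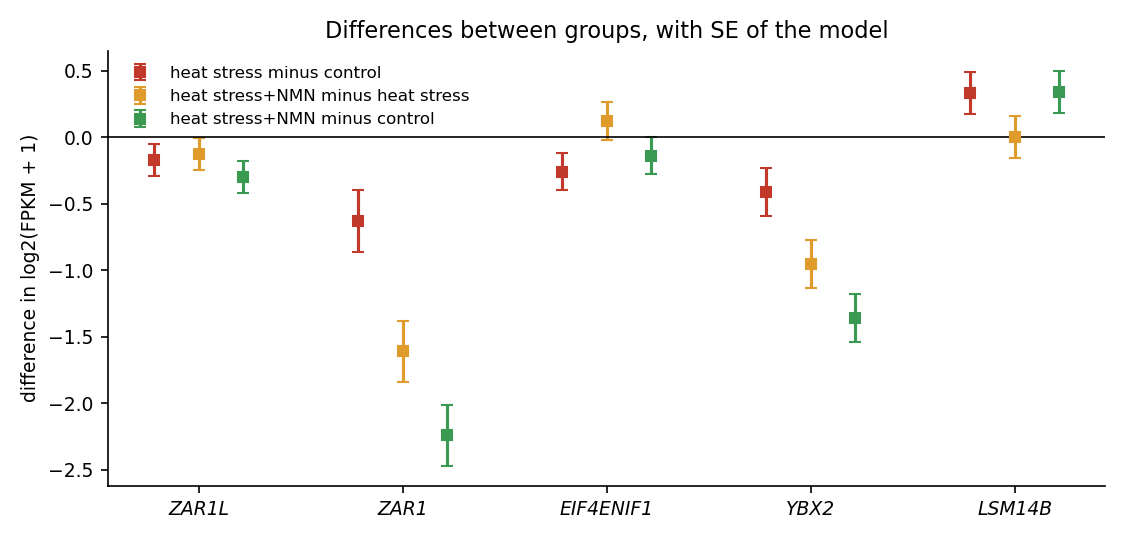
Difference in log2(FPKM + 1) for the 5 storage genes tested, with 1 symbol per comparison and bars of 1 standard error from the limma model (2 samples per group). ZAR1 and YBX2 lie below 0 in all 3 comparisons, down to -2.24 and -1.36, and LSM14B lies at or above 0.

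The genes that work with these proteins did not move in one direction with them. A list of 30 translational repression partners (CPEB proteins, eIF4E forms, poly(A)-binding proteins and other RNA-binding repressors) had 17 tested genes. Between heat stress+NMN and control, 2 of the 17 had an adjusted P under 0.05, both higher, and 15 did not pass, beside 21.5% of all tested genes called. FMR1, a repressor of translation that travels with ribosomes, was at 3.27 and 3.18 FPKM in control, 5.45 and 5.11 FPKM in heat stress, with a mean of 5.19 ± 0.268 FPKM (SD, n = 2) with NMN. The heated samples of FMR1 were above control with and without NMN, with an adjusted P of 0.0294 between heat stress+NMN and control. MEX3C, an RNA-binding ubiquitin ligase, was at 9.15 and 7.07 FPKM in control and at 12.9 and 13.2 FPKM with NMN (adjusted P = 0.0357). The median difference of the list was 0.10, against 0.11 for all genes.

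The most abundant partners were EIF4E1B, the oocyte form of the cap-binding protein that is found with 4E-T, and NANOS1. EIF4E1B was at 58.1 and 66.6 FPKM in control, 53.7 and 50.9 FPKM in heat stress, and 55.8 and 62.0 FPKM with NMN. Its heat stress samples were the lowest, and its NMN samples overlapped control (difference -0.08). NANOS1 was at 30.1 and 18.1 FPKM in control, 35.3 and 13.3 FPKM in heat stress and 11.1 and 12.4 FPKM with NMN, and its difference of -0.93 from control did not pass (adjusted P = 0.187). PABPN1L, the oocyte nuclear-type poly(A)-binding protein, was lower in heat stress (11.7 and 13.1 FPKM) than in control (14.2 and 15.6 FPKM) and with NMN (15.3 and 16.4 FPKM), with an adjusted P of 0.352 for heat stress+NMN minus heat stress.

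Of 27 genes for decapping and decay, 14 were tested, and 1 was higher and 1 lower between heat stress+NMN and control at an adjusted P under 0.05, again beside 21.5% of all genes. DCP2, the decapping enzyme, rose from 3.26 and 2.55 FPKM in control to 5.99 and 5.51 FPKM with NMN, with 3.36 and 4.59 FPKM in heat stress (adjusted P = 0.0333). ZFP36L2, which binds AU-rich elements and promotes mRNA decay, fell from 13.6 and 11.9 FPKM in control to 4.36 and 7.11 FPKM with NMN, with 7.53 and 10.4 FPKM in heat stress (adjusted P = 0.0389). The heat stress samples of both genes lay between the others. EDC4, the decapping scaffold, was at 1.82 and 2.05 FPKM in control, 1.07 and 1.41 FPKM in heat stress and 2.26 and 2.04 FPKM with NMN, and its adjusted P was 0.184 for heat stress minus control and 0.288 for heat stress+NMN minus heat stress. PATL1, the paralog of PATL2, was at 5.27 and 4.77 FPKM in control, 5.80 and 6.26 FPKM in heat stress and 6.73 and 7.54 FPKM with NMN, and its groups did not overlap (difference 0.43 from control with NMN, adjusted P = 0.0545). LSM12 was between 0.167 and 0.495 FPKM.

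Of 27 P-body and stress granule scaffolds, 9 were tested and 3 had an adjusted P under 0.05, beside 21.5% of all genes. DDX3X, a DEAD-box helicase, and TNRC6A, the partner of Argonaute, rose and NCL, nucleolin, fell between control and heat stress+NMN. DDX3X went from 36.2 and 32.1 FPKM in control through 42.6 and 46.1 FPKM in heat stress to 59.9 and 52.6 FPKM with NMN (adjusted P = 0.0260). TNRC6A was at 1.42 and 1.20 FPKM in control, 1.90 and 1.87 FPKM in heat stress and 2.44 and 2.36 FPKM with NMN (adjusted P = 0.0308). NCL was at 5.85 and 5.24 FPKM in control, 3.29 and 1.80 FPKM in heat stress and 1.86 and 2.35 FPKM with NMN (adjusted P = 0.0317), so its heat stress and NMN samples overlapped. ATXN2L, an ataxin-2 relative of stress granules, had its largest difference between heat stress and control (-0.55, adjusted P = 0.184), and HNRNPAB overlapped in every comparison. Of 6 Y-box and cold-shock genes, 2 were tested (YBX1 and LIN28A) and none had an adjusted P under 0.05. LIN28A was at 0.977 and 0.646 FPKM in control and at 1.35 and 1.82 FPKM with NMN (adjusted P = 0.0853). Its mean of 1.14 FPKM passed the minimum only through the heated groups, where it was higher, so its P carries no weight.

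Among 15 tested oocyte markers, 4 were lower between heat stress+NMN and control at an adjusted P under 0.05 (GDF9, NPM2, ZP3 and ZP4), none was higher and 11 did not pass, beside 21.5% of all genes called and 9.17% called lower. ZP3, a zona pellucida protein, was at 24.7 and 26.3 FPKM in control, 12.3 and 14.2 FPKM in heat stress and 11.9 and 8.38 FPKM with NMN (adjusted P = 0.0210 with NMN against control). GDF9, an oocyte growth factor, was at 732 and 777 FPKM in control, 477 and 532 FPKM in heat stress and 435 and 353 FPKM with NMN (adjusted P = 0.0219). NPM2, the oocyte histone chaperone, was at 1.42 and 1.92 FPKM in control, 1.16 and 1.06 FPKM in heat stress and 0.361 and 0.170 FPKM with NMN (adjusted P = 0.0210). Its mean of 1.02 FPKM passed the minimum only through control and heat stress, where it was high, so its call carries no weight in the count of 4. ZP3, GDF9 and NPM2 had the same order of group means as ZAR1 and YBX2. The most abundant markers were BMP15 (1606 and 1646 FPKM in control, 1820 and 1751 FPKM with NMN) and MOS (845 and 932 FPKM in control, 655 and 590 FPKM with NMN), and neither passed (adjusted P = 0.396 and 0.0554). No marker list and no list of partners had a gene with an adjusted P under 0.05 in the other 2 comparisons.

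Of the 3 tested cumulus and granulosa markers, GREM1 was at 2.48 and 1.73 FPKM in control and 3.58 and 3.55 FPKM with NMN (adjusted P = 0.0531), and INHBA was at 16.4 and 13.2 FPKM in control and 4.35 and 10.2 FPKM with NMN (adjusted P = 0.109). Of 8 blood and other markers 7 were found, none was tested, and their summed level was at most 0.404 FPKM. PECAM1 had the highest mean of these, at 0.148 to 0.382 FPKM, and VIM was at or below 0.0597 FPKM.

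All 11 partner and marker genes called between heat stress+NMN and control lost their call without control 2 (adjusted P of 0.104 to 0.135), without NMN 1 (0.114 to 0.153) and without NMN 2 (0.0968 to 0.147). Without control 1, 2 of the 11 were called. Scaled to the same sum outside the mitochondrial genome, 5 of the 11 were called without LOC100513953 in the sum and 1, NPM2, with it. NPM2, whose call carries no weight, was among the genes kept under both scalings and without control 1. With a minimum mean of 0.1 FPKM 0 of the 11 were called (adjusted P of 0.0505 to 0.0830), as without a filter (0.0823 to 0.149). All 11 kept their direction under every alternative in which they were tested.

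**Figure D4:**
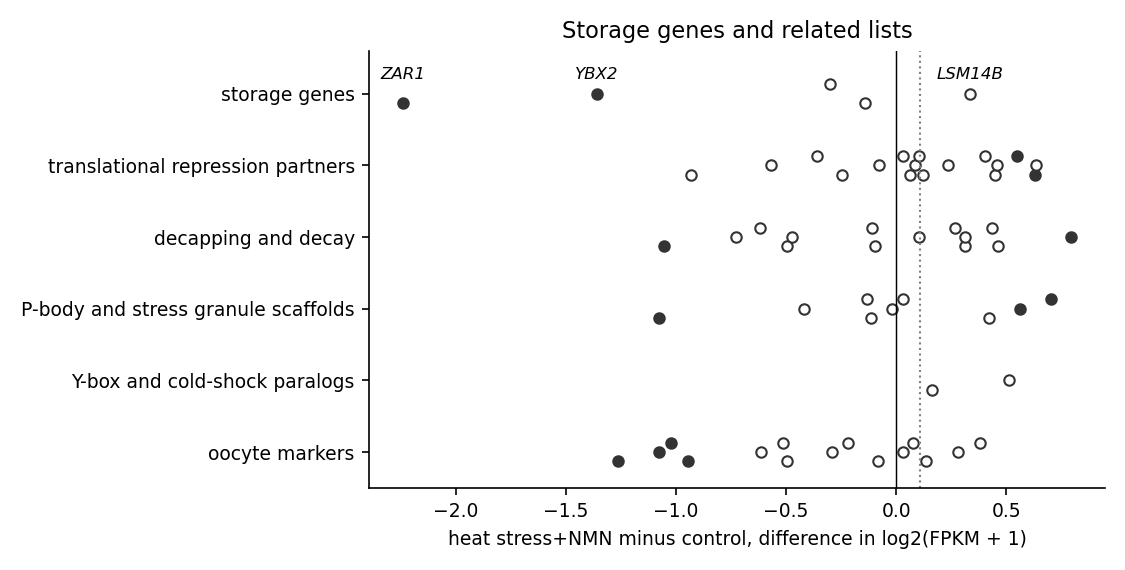
Difference in log2(FPKM + 1) between heat stress+NMN and control for each tested gene of the storage set and of 5 related lists. Filled points had an adjusted P under 0.05, and the dotted line is the median of all tested genes, 0.11. ZAR1 at -2.24 and YBX2 at -1.36 are the lowest points drawn, and the called partners lie on both sides of 0.

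Genes with a pattern like that of ZAR1 were sought by the Pearson correlation of log2(FPKM + 1) over the 6 samples, among genes with a mean of at least 5 FPKM. The samples fall into 3 groups of 2, so the correlation largely reflects the order of the groups. The nearest to ZAR1 were ZNF79 (r = 0.9953), SFN (0.9920) and HOMEZ (0.9844), and 21 of 1671 genes exceeded 0.95. SFN, the 14-3-3 sigma protein, was at 15.6 and 22.3 FPKM in control, 9.90 and 12.2 FPKM in heat stress and 5.04 and 2.60 FPKM with NMN, close to the values of ZAR1. ZNF79, a zinc finger protein, had a smaller range, from 8.69 and 10.7 FPKM in control to 5.44 and 4.53 FPKM with NMN, and HOMEZ, a homeobox protein, went from 9.76 and 9.99 FPKM to 7.32 and 6.93 FPKM. The nearest to YBX2 were FTL (0.9901), PRDX2 (0.9874) and TMUB1 (0.9839), with 34 of 1672 genes above 0.95. FTL, the ferritin light chain, was at 338 and 469 FPKM in control, 313 and 257 FPKM in heat stress and 136 and 144 FPKM with NMN. PRDX2, a peroxiredoxin, was at 9.81 and 15.9 FPKM in control, 7.88 and 9.31 FPKM in heat stress and 3.25 and 4.65 FPKM with NMN, and TMUB1 was at 6.94 and 10.3 FPKM in control and 1.29 and 2.37 FPKM with NMN. ZAR1 and YBX2 correlated with each other at 0.969.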

How the data were processed

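Gene-level FPKM, 1 column per sample, were deposited by the authors (Cufflinks 2.2.1, Cuffnorm and Cuffdiff, per the submitters' processing notes) from mRNA libraries aligned to the pig genome Sscrofa11.1 (susScr11). Where FPKM divide by the fragments of each library, a larger mitochondrial share can lower all other genes. How Cuffnorm scaled these libraries was not examined here. In these samples the FPKM sum outside the mitochondrial genome was 60072 and 62744 in control and 61812 and 59499 with NMN. These sums overlapped, while the mitochondrial share was 66.4% and 61.7% in control and 74.2% and 74.7% with NMN. The median FPKM of the tested genes was 3.18 and 3.16 in control, 3.14 and 3.11 in heat stress, and 3.22 and 3.14 with NMN. The part of the mitochondrial share in the differences was not tested. Depth was not given, so no counting interval was computed. The authors' fold changes, p-values, q-values and lists of called genes were not used.

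Genes with a mean of at least 1 FPKM were tested on log2(FPKM + 1) with limma 3.58.1 (R 4.3.3, trend on mean level) in 1 model of 3 groups, two-sided, with Benjamini-Hochberg adjustment over 4713 genes. The fit was also run on simulated data with independent noise for each gene and sample. Its outcome is not given, and no call rests on it. The 3' ends were read with pysam 0.24.0. The storage genes, lists and tests were chosen with earlier results of these data known. Named from each list were up to 2 genes per comparison with the smallest P under 0.05 whose groups did not overlap, the 2 with the highest mean, and the 3 genes most like ZAR1 and YBX2. PSMA7, ZP4, GATA4 and the markers at 0 were named after their values were seen. Samples with the same number did not deviate together (r between -0.032 and 0.008 over 4713 genes), so the numbers were not treated as pairs.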

Additional observations from a re-analysis of the deposited data

How the results depend on the processing

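Over the alternatives, the difference between heat stress+NMN and control was -2.50 to -2.01 for ZAR1 and -1.70 to -1.13 for YBX2. ZAR1L and LSM14B changed sign between heat stress and heat stress+NMN in 1 and 4 alternatives. The cause of these shifts was not tested.

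Genes with an unadjusted P under 0.05 (main values 1074, 641 and 1948 for heat stress minus control, heat stress+NMN minus heat stress and heat stress+NMN minus control) were 1865, 1161 and 3236 with a minimum mean of 0.1 FPKM, 468, 266 and 791 with one of 5 FPKM, 2388, 1557 and 3700 without a filter, and 562, 269 and 789 with the same FPKM sum outside the mitochondrial genome. The last scaling changed the split of higher and lower genes from 598 and 476 to 34 and 528 for heat stress minus control, from 337 and 304 to 182 and 87 for heat stress+NMN minus heat stress, and from 1208 and 740 to 279 and 510 for heat stress+NMN minus control. With LOC100513953 also left out of that sum there were 821, 520 and 1757 genes, split 333 and 488, 257 and 263, and 1051 and 706. Leaving out 1 sample gave 648 to 1015, 327 to 701 and 1233 to 1941 genes.

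Genes with an adjusted P under 0.05 for heat stress+NMN minus control (1015, 583 higher and 432 lower) were 86 with a minimum mean of 0.1 FPKM, 546 with one of 5 FPKM, 0 without a filter, 281 (37 higher, 244 lower) with the same sum outside the mitochondrial genome, 558 (242 higher, 316 lower) when LOC100513953 was also left out of that sum, an alternative chosen after seeing the data, and 0 to 798 when 1 sample was left out. The other 2 comparisons, at 0, had 84 and 38 with the same sum outside the mitochondrial genome, 1 and 1 when LOC100513953 was also left out, 1 and 1 without the trend, and 0 to 1 and 0 to 2 when 1 sample was left out. With the replicate number as a block, 937, 527 and 1815 genes had an unadjusted P under 0.05, and 445 an adjusted P under 0.05 for heat stress+NMN minus control (0 in the others). The block left 4 of the 11 called partner and marker genes, among them NPM2, whose call carries no weight.

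The median of the tested storage genes moved from -0.26 to -0.54 for heat stress minus control and from -0.13 to 0.25 for heat stress+NMN minus heat stress with the same sum outside the mitochondrial genome, and was -0.28 and -0.08 when LOC100513953 was also left out of that sum. With a minimum mean of 5 FPKM, which leaves ZAR1 and ZAR1L, it was -0.87 for heat stress+NMN minus heat stress and -1.27 for heat stress+NMN minus control. Leaving out 1 sample gave -0.36 to -0.18, -0.24 to -0.04 and -0.41 to -0.20. Depth was not given, so the counting error of DDX6 and LSM14A, both under 1 FPKM, is unknown.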
